A study of Solanum lycopersicum with 9 samples.

Results

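The 22 gene models described here were high in tomato plants that overexpressed WRKY-B-GFP and close to 0 in both control sets. They were chosen from the 33989 gene models of an RNA-Seq table by their measured levels, in FPKM (fragments per unit of transcript length and of library size). A gene model was taken when its mean over the WRKY-B-GFP libraries OE1, OE30 and OE9 was 10 FPKM or more, each of these 3 libraries was at 5 FPKM or more, and the mean was under 1 FPKM in control CK1 and in control CK2. The overexpressed gene, WRKY-B (Solyc02g071130), also met these limits and was left out. Because the limits used the contrast of WRKY-B-GFP with both control sets, that contrast is given for the 22 gene models as a description and was not tested.

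The study asked how the WRKY-B transcription factor acts on gene expression while lateral branches form in tomato. WRKY-B fused to green fluorescent protein was driven by the cauliflower mosaic virus 35S promoter, which is active in most plant tissues. The RNA-Seq data comprised 9 libraries in 3 sets of 3. The paper describes libraries of WT and WRKY-B-GFP plants only, with several plants in each replicate, and does not mention a second control set. By the sample labels, CK1 was bud of the cultivar monomaker, CK2 was bud of the cultivar Compound raceme, and the OE set was flower of Compound raceme. The paper instead names the cultivar Ailsa Craig and axillary buds of the sixth node for WT and WRKY-B-GFP plants alike. No age, treatment or genotype is given in the labels. Neither source says in words which control set is the WT, or whether the numbers in OE1, OE30 and OE9 name transgenic lines. By the labels, overexpression and tissue cannot be told apart in any comparison of OE with a control set, and for CK1 neither can the cultivar. In bulk tissue, fewer cells of one type and less RNA per cell cannot be told apart either. OE is read here as WRKY-B-GFP, since a ChIP-Seq sample of these plants bears the name OE_9 in the paper.

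WRKY proteins form a large family of plant transcription factors that bind W-box elements in promoters and can raise or lower the transcription of nearby genes. Members of the family are best known from defence, senescence and stress responses, and WRKY-B was studied for its part in the growth of axillary buds into lateral branches. A gene silent in one tissue and transcribed in another is common in plants, since flowers and pollen express many genes that vegetative buds do not. No table used here pairs the tomato IDs with gene names, functions or sequences. The 22 gene models are therefore given by ID and level, in the order of their level in WRKY-B-GFP plants, and marker genes of flower, bud or leaf could not be checked against the labelled tissues.

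Libraries of one control set resembled each other more than the WRKY-B-GFP libraries did, with Pearson's r of log2(FPKM + 0.1) across gene models, which are not independent replicates, of 0.974 to 0.977 within each control set and 0.948 to 0.959 within OE. Between sets, r was 0.604 to 0.635 for OE and CK2 and 0.701 to 0.726 for CK1 and CK2. For OE and CK1 it was 0.749 to 0.801. The sum of FPKM per library was 743707 to 769380 in the controls and 615715 to 684351 in OE. Read totals were not given, so the depth behind each value is unknown and a value of 0 FPKM means only that the gene model was listed at 0. WRKY-B (Solyc02g071130.3) stood at 74.0, 93.5 and 206 FPKM in OE1, OE30 and OE9, and between 0.08 and 0.87 FPKM in the 6 control libraries.

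Few gene models had this on and off pattern. Of the 10338 gene models with a mean under 1 FPKM in both control sets, 0.213% reached the limits in OE, and of the 10286 gene models at the limits in OE, 0.214% were that low in both control sets, both without WRKY-B in the count. With the same limits turned round, 144 gene models were high in CK1 and under 1 FPKM in CK2 and OE, which is 1.39% of the gene models at the limits in CK1. For CK2 the number was 519, or 5.12%. The 22 gene models were thus fewer than those high in CK1 alone or in CK2 alone by the same limits. A further 85 gene models were at the limits in both control sets and under 1 FPKM in OE.

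The 22 gene models spanned a wide range of levels in WRKY-B-GFP plants. Their OE means ran from 10.5 to 143 FPKM with a median of 16.2 FPKM, and 5 were at 50 FPKM or more, 5 between 20 and 50 FPKM and 12 under 20 FPKM. Among all gene models at the limits in OE, the percentile of their mean ran from 2.79 to 93.4, with a median of 26.4, so most lay in the lower part of that range. Together they summed to 789, 1180 and 517 FPKM in OE1, OE30 and OE9, which is 0.128%, 0.172% and 0.0801% of all FPKM in those libraries. In the 6 control libraries they summed to 6.72 to 10.1 FPKM. The 6 gene models with the highest means held 69.4% of the summed OE mean.

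**Figure D1:**
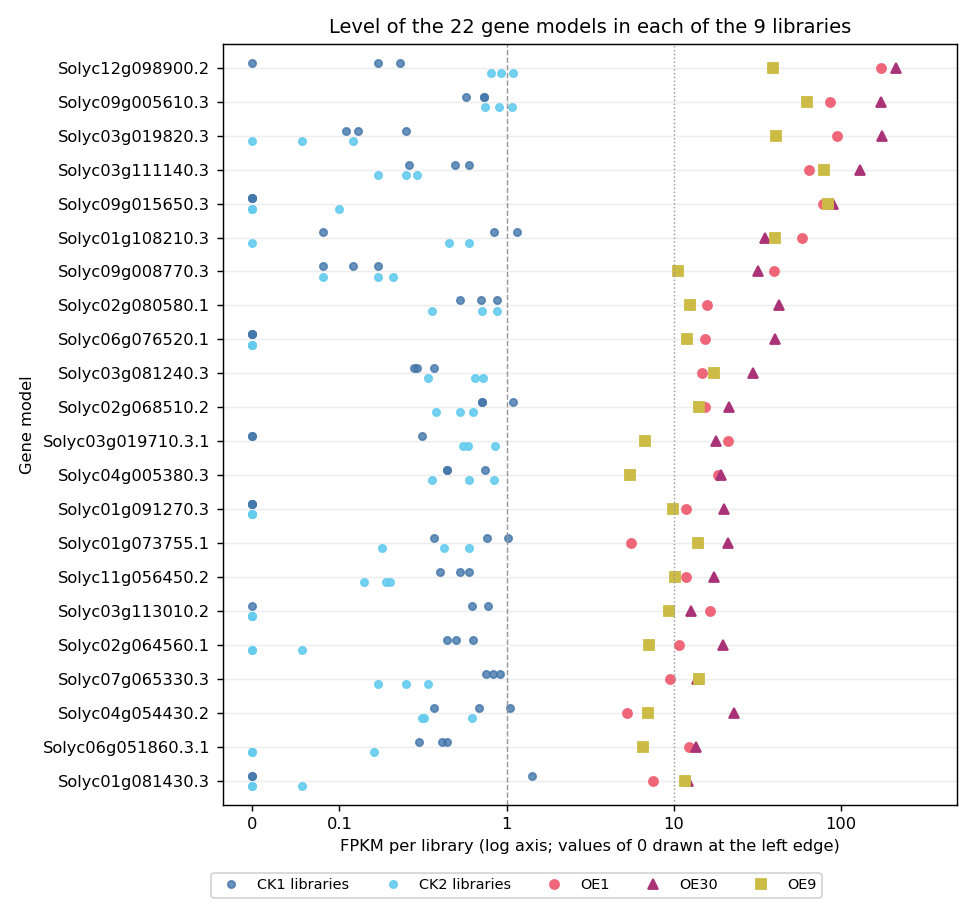
FPKM (log axis) of each of the 22 gene models in every library, ordered by the OE mean, with CK1 and CK2 libraries as small circles and OE1, OE30 and OE9 as larger symbols; the dashed line marks the limit of 1 FPKM and the dotted line that of 10 FPKM. The limits leave no room for a gene model's OE values to overlap its control values. OE30 lies rightmost in 17 of the 22.

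The 5 highest gene models reached the level of well expressed genes in WRKY-B-GFP plants. Solyc12g098900.2, on chromosome 12, was the highest, at 175, 215 and 39.4 FPKM in OE1, OE30 and OE9, a mean of 143 ± 92.0 FPKM (SD, n = 3). In the control libraries it was at 0, 0.17 and 0.23 FPKM in CK1 and at 0.93, 1.09 and 0.81 FPKM in CK2. The lowest OE value was 36.2 times the highest control value. Its CK2 mean of 0.943 FPKM was the closest of the 22 to the limit of 1 FPKM.

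Solyc09g005610.3, on chromosome 9, followed at 85.7, 174 and 62.6 FPKM in OE1, OE30 and OE9, a mean of 107 ± 58.6 FPKM (SD, n = 3). Both control sets held a low, steady level of this gene model, 0.57, 0.73 and 0.73 FPKM in CK1 and 1.08, 0.74 and 0.90 FPKM in CK2. Its OE mean was 118 times its higher control mean. It was one of the 11 gene models that were above 0 in all 6 control libraries.

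Solyc03g019820.3, on chromosome 3, was at 94.65, 178 and 41.2 FPKM in OE1, OE30 and OE9, a mean of 105 ± 68.9 FPKM (SD, n = 3). Its control values were 0.25, 0.13 and 0.11 FPKM in CK1 and 0.12, 0.06 and 0 FPKM in CK2, so that the OE mean was 640 times the CK1 mean. Like Solyc12g098900.2, it was lowest in OE9, at less than 50% of either other OE library. Solyc03g111140.3, on the same chromosome, was at 64.5, 131 and 79.8 FPKM in OE1, OE30 and OE9, a mean of 91.7 ± 34.6 FPKM (SD, n = 3), with 0.49, 0.26 and 0.60 FPKM in CK1 and 0.17, 0.25 and 0.29 FPKM in CK2.

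Solyc09g015650.3, on chromosome 9, had both the steadiest level in OE and the widest gap to the controls among the gene models with any control value. It was at 78.2, 89.45 and 84.3 FPKM in OE1, OE30 and OE9, a mean of 84.0 ± 5.65 FPKM (SD, n = 3), and its coefficient of variation of 6.73% was the lowest of the 22. In the control libraries it was listed at 0 in 5 of 6 and at 0.10 FPKM in the other, the third CK2 library. The lowest OE value was 782 times that single control value, a ratio that rests on a value near the last printed decimal.

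The next 5 gene models had OE means between 20 and 50 FPKM. Solyc01g108210.3 was at 58.5, 35.2 and 40.5 FPKM in OE1, OE30 and OE9, against 0.08, 1.15 and 0.84 FPKM in CK1 and 0.45, 0 and 0.60 FPKM in CK2. It was the one gene model of the 22 that was lowest in OE30. Solyc09g008770.3 was at 39.8, 31.9 and 10.7 FPKM in OE1, OE30 and OE9, and its 6 control values lay between 0.08 and 0.21 FPKM. Here OE9 stood apart from the other OE libraries, though still at 50.9 times the highest control library.

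Solyc02g080580.1, Solyc06g076520.1 and Solyc03g081240.3 were all highest in OE30. Solyc02g080580.1 was at 15.9, 42.9 and 12.5 FPKM in OE1, OE30 and OE9, with 0.53 to 0.88 FPKM in CK1 and 0.36 to 0.88 FPKM in CK2. Solyc06g076520.1 was listed at 0 in all 6 control libraries and was at 15.4, 40.25 and 11.98 FPKM in OE1, OE30 and OE9. For this gene model and Solyc01g091270.3, no ratio to the controls can be given. Solyc03g081240.3 was at 14.85, 29.8 and 17.5 FPKM in OE1, OE30 and OE9, with 0.28 to 0.37 FPKM in CK1 and 0.34 to 0.72 FPKM in CK2.

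The other 12 gene models had OE means from 10.5 to 17.1 FPKM. Solyc02g068510.2 was at 15.5, 21.5 and 14.2 FPKM in OE1, OE30 and OE9, Solyc11g056450.2 at 11.8, 17.4 and 10.2 FPKM in the same order, and Solyc07g065330.3 at 9.51, 13.85 and 14.1 FPKM. In each of these 3 the OE libraries lay within a factor of 2 of each other. Solyc03g113010.2, at 16.5, 12.7 and 9.33 FPKM in OE1, OE30 and OE9, and Solyc01g081430.3, at 7.54, 12.2 and 11.7 FPKM, did so as well. Solyc01g081430.3 held the highest control value of all 22, 1.42 FPKM in the second CK1 library, while the other CK1 libraries were at 0 and the CK2 libraries at 0.06, 0 and 0 FPKM.

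Several of the lower gene models rested mainly on part of the OE libraries. Solyc04g054430.2 was at 5.25, 23.1 and 7.03 FPKM in OE1, OE30 and OE9, the widest spread of the 22 with a coefficient of variation of 83.3%. Solyc01g073755.1 was at 5.59, 21.3 and 14.02 FPKM in OE1, OE30 and OE9. Solyc04g005380.3 was at 18.55 FPKM in OE1 and 19.3 FPKM in OE30 but at 5.51 FPKM in OE9. In these 3 gene models one OE library lay just above the limit of 5 FPKM.

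The remaining 4 were Solyc03g019710.3.1, at 21.2, 17.85 and 6.78 FPKM in OE1, OE30 and OE9, Solyc01g091270.3, at 11.8, 20.1 and 9.97 FPKM in the same order, Solyc02g064560.1, at 10.8, 19.9 and 7.12 FPKM, and Solyc06g051860.3.1, at 12.4, 13.7 and 6.60 FPKM. All 4 were lowest in OE9. Positions were given for 2 of the 22 gene models, on build SL3.0. Solyc03g019710.3.1 lies on chromosome 3 from 62900863 to 62904415 on the minus strand, and Solyc06g051860.3.1 on chromosome 6 from 35660027 to 35664723 on the minus strand. The files did not say whether these spans are coding or untranslated.

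Over the 20 gene models with a control value above 0, the OE mean was 15.1 to 2520 times the higher control mean, with a median of 28.0. The lowest OE library was 5 to 782 times the highest control library. The smallest of these ratios was that of Solyc04g054430.2, with 5.25 FPKM in OE1 and 1.05 FPKM in the third CK1 library. Both ends of these ranges follow in part from the limits, which fix a floor in OE and a ceiling in the controls.

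The word "only" holds for these gene models as a limit and not as an absence of signal. Of their 132 control values, 34 were listed at 0 and 7 were above 1 FPKM, 1 in each of 7 gene models. All 6 control libraries were above 0 in 11 of the 22 gene models and at 0 in 2, Solyc01g091270.3 and Solyc06g076520.1. The CK1 mean was the higher control mean in 13 gene models, the CK2 mean in 7, and the means were equal in those 2. Over the 22, the median control mean was 0.470 FPKM in CK1 and 0.245 FPKM in CK2.

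Gene models just outside the limits had much the same form as those just inside. On the OE mean, Solyc01g081430.3 lay inside at 10.5 FPKM and Solyc11g027840.2.1 outside at 9.57 FPKM, with 8.50, 13.1 and 7.11 FPKM in OE1, OE30 and OE9. On the single library, Solyc04g054430.2 lay inside at 5.25 FPKM in OE1 and Solyc10g078770.2 outside at 3.14 FPKM in OE9. On the control mean, Solyc12g098900.2 lay inside at 0.943 FPKM in CK2 and Solyc10g081840.2 outside at 1.03 FPKM in CK1. The edge of the set is therefore a matter of where the limits stand. It also depends on single OE libraries, since 17 of the 22 met the same limits without OE30 and 21 without OE9. Without OE1 the same limits gave 34 gene models, all of the 22 among them.

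In all, 8 gene models met every limit but that on each single OE library, 4 of them lowest in OE1, 4 in OE9 and 0 in OE30. Solyc01g097010.3 was listed at 0 in OE1, at 37.1 FPKM in OE30 and at 16.5 FPKM in OE9, with 5 of 6 control libraries at 0. Solyc01g095400.3 was at 0, 17.5 and 18.0 FPKM in the same order, with all 6 control libraries at 0. Both were on in OE30 and OE9 and listed at 0 in OE1.

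The 22 gene models varied more between the OE libraries than other gene models at the same limits did. Their median coefficient of variation over OE1, OE30 and OE9 was 44.0%, against 15.3% over the other 10264 gene models at the OE limits. The highest OE library was at least 2-fold the lowest in 15 of the 22 (68.2%), against 8.52% of the others. In the mirrored sets, the median coefficient of variation was 4.39% over the CK1 libraries for the 144 gene models high in CK1 and 5.93% over the CK2 libraries for the 519 high in CK2. Each OE library may be a different line, which the control libraries are not known to be, so the part of lines, plants and tissue in this spread was not tested.

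**Figure D2:**
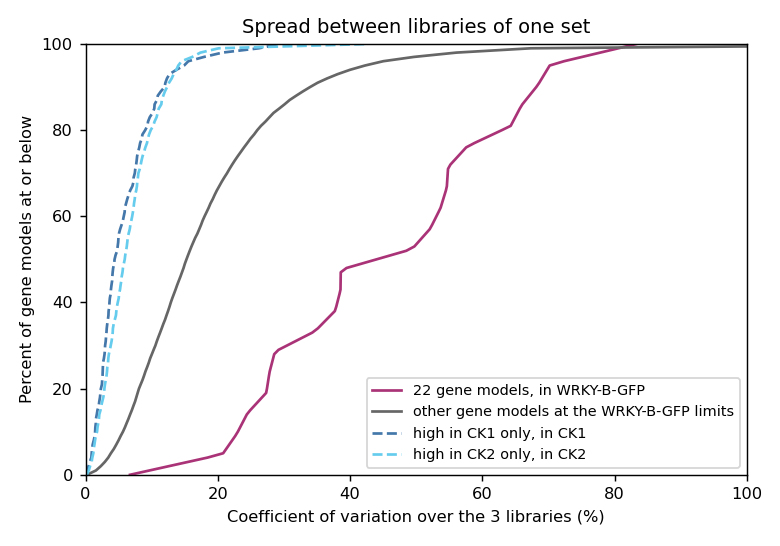
Cumulative share of gene models (vertical axis, percent) by the coefficient of variation over the 3 libraries of the set where they are high (horizontal axis, percent), for the 22 gene models, for the other gene models at the OE limits, and for those high in CK1 or in CK2 by the same limits. The curve of the 22 lies to the right of the others, with a median of 44.0% against 15.3% for the other gene models at the OE limits; the axis ends at 100%, beyond which a few other gene models lie.

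OE30 was most often the highest OE library of the set, and OE9 was most often the lowest. OE30 was the highest OE library in 17 of the 22, OE1 in 4 and OE9 in 1, while among the other gene models at the OE limits OE30 was highest in 40.7%, OE9 in 33.7% and OE1 in 25.5%. OE9 was the lowest in 14 of the 22, OE1 in 7 and OE30 in 1, and OE9 was lowest in 24.5% of the others. After median-ratio scaling of the libraries, OE30 was highest in 18 of the 22 and in 47.2% of the others, and OE9 was lowest in 14 of the 22 and in 37.3% of the others. The limits used these OE values, and without OE30 17 of the 22 met them, so the choice of the set feeds into these counts. With 1 library for each of OE1, OE30 and OE9, these orders have no replicate check.

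On the log2 scale, OE30 was above OE1 in 18 of the 22 with a median difference of 0.63, and above OE9 in 20 with a median difference of 1.03. OE9 was above OE1 in 7, with a median difference of −0.36. In 7 gene models all 3 OE libraries lay within a factor of 2, in 4 OE30 was at least 2-fold above both others, in 5 OE9 was at most 50% of both others, in 1 OE1 was at most 50% of both others, and 5 fitted none of these forms. The 5 that were low in OE9 were Solyc12g098900.2, Solyc03g019820.3, Solyc09g008770.3, Solyc03g019710.3.1 and Solyc04g005380.3. The 4 that were high in OE30 were Solyc09g005610.3, Solyc02g080580.1, Solyc06g076520.1 and Solyc04g054430.2.

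The level of WRKY-B was highest in OE9, at 206 FPKM, where 14 of the 22 gene models were lowest, and lowest in OE1. With 3 libraries, no correlation across them was computed.

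**Figure D3:**
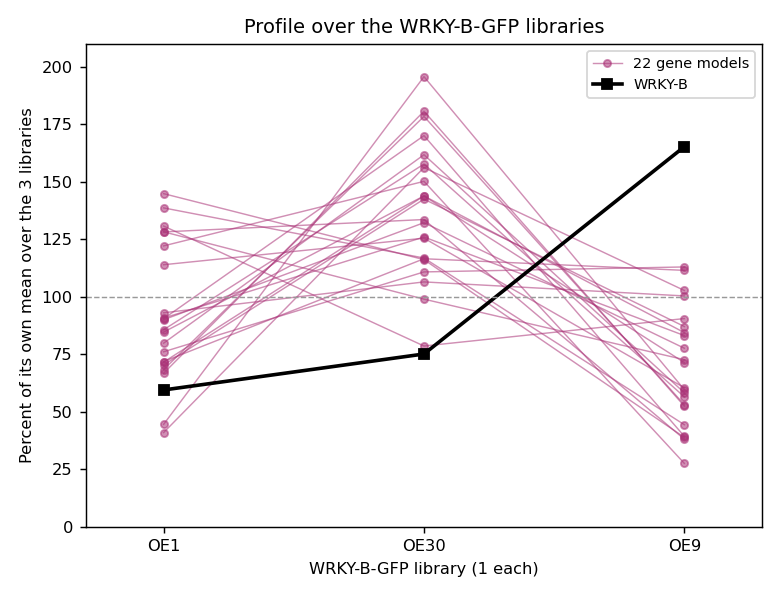
Level in OE1, OE30 and OE9 as percent of each gene model's own mean over these 3 libraries, for the 22 gene models (thin lines) and for WRKY-B (black); the order of the libraries along the axis has no meaning, and the lines only join the points of 1 gene model. OE30 is the highest point in 17 of the 22, and WRKY-B is highest in OE9.

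The level that remained in the control sets is given as a description, because the limits used both control means and so bounded the difference between them. By limma-trend on log2(FPKM + 0.1), with a call at an adjusted p (Benjamini-Hochberg) under 0.05 and a change of at least 2-fold, 3 of the 22 gene models were called between CK2 and CK1, against a background of 27% of all gene models tested. Only 10 of the 22 could be tested, since a test needed 0.5 FPKM in at least 3 of the 6 control libraries. All 3 that were called reached 0.5 FPKM only in the set where they were higher, so they had to differ to be tested, and no p is given for them.

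Solyc12g098900.2 and Solyc03g019710.3.1 had their higher values in CK2. Solyc12g098900.2 averaged 0.133 ± 0.119 FPKM in CK1 and 0.943 ± 0.140 FPKM in CK2 (SD, n = 3), and Solyc03g019710.3.1 was at 0, 0.31 and 0 FPKM in CK1 and at 0.59, 0.85 and 0.55 FPKM in CK2. Solyc07g065330.3 had its higher values in CK1, at 0.75, 0.83 and 0.91 FPKM, with 0.34, 0.17 and 0.25 FPKM in CK2. The control sets did not overlap in any of these 3 gene models, which are the 3 that were called. Nor did they overlap in Solyc02g068510.2, higher in CK1, and Solyc09g005610.3, higher in CK2, which were tested and not called.

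Among the 12 gene models too low for the test, Solyc02g064560.1, Solyc06g051860.3.1 and Solyc11g056450.2 also had control sets that did not overlap. Their higher values were in CK1. The share of all gene models with such control sets was not taken, so nothing particular to the 22 can be read from this. Solyc02g064560.1 was at 0.44, 0.50 and 0.63 FPKM in CK1 and at 0.06, 0 and 0 FPKM in CK2. Solyc06g051860.3.1 was at 0.44, 0.30 and 0.41 FPKM in CK1 and at 0, 0 and 0.16 FPKM in CK2. Solyc11g056450.2 was at 0.40, 0.53 and 0.60 FPKM in CK1 and at 0.14, 0.19 and 0.20 FPKM in CK2. When the filter was dropped and all 22 were tested, 6 were called by limma-trend, against 21.9% of all gene models in that fit, a share near that of the 22. With all 9 libraries in 1 fit 7 of the 22 were called, against 25%, and with median-ratio scaling 3 of 10, against 25.7%. With log2(FPKM + 1), 0 of the 10 were called, against a background of 20%. Leaving out 1 control library left 5 to 8 of the 22 in the test. Gene models called as higher in the set that lost a library were then no longer tested. These fits therefore cannot show whether the calls rest on single libraries. At levels under 1 FPKM, the call thus depended on the added constant.

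**Figure D4:**
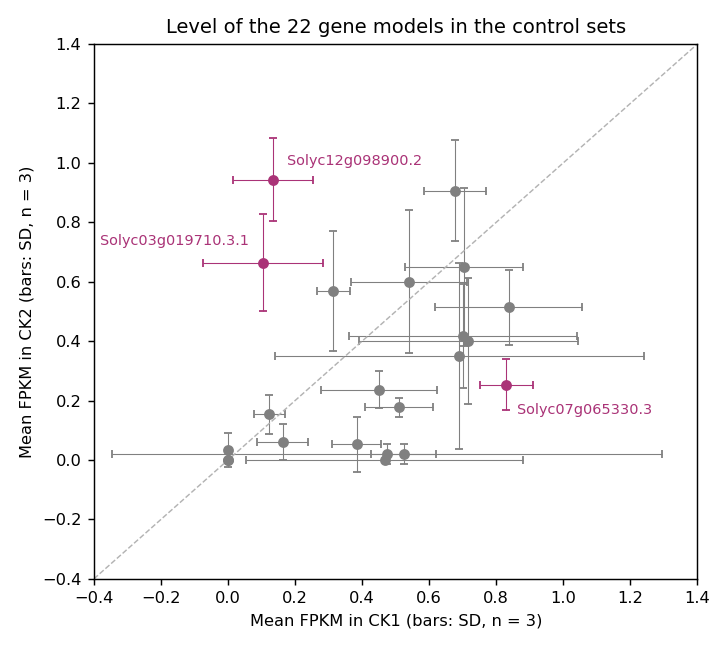
Mean FPKM of each of the 22 gene models in CK1 (horizontal axis) and CK2 (vertical axis), with bars of 1 SD over the 3 libraries of each set and a dashed line of equal means; coloured and named points are the 3 gene models called between the control sets. Solyc12g098900.2 and Solyc03g019710.3.1 lie above the line, and Solyc07g065330.3 lies below it.

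The table splits some loci into a pair of gene models, between which the authors' counting could divide shared reads. This was so at 5 of the 22 loci (22.7%), close to the 23.7% of all loci in the table. At Solyc01g108210 the second gene model was also higher in OE than in the controls, at 13.0, 15.8 and 17.0 FPKM in OE1, OE30 and OE9. It was at 1.14 to 1.45 FPKM in CK1 and 0.44 to 0.55 FPKM in CK2. The first was highest in OE1, while the second was lowest there. At Solyc03g019710 and Solyc06g051860 the second gene model was low throughout, at 0.87 to 4.65 FPKM and 1.47 to 3.74 FPKM in OE and under 0.5 FPKM in the controls.

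At the other loci of this kind the second gene model was above 1 FPKM in every control library. The second gene model of Solyc03g113010 stood at 18.3 to 20.0 FPKM in CK1, 14.9 to 17.2 FPKM in CK2 and 25.4 to 30.9 FPKM in OE, so the locus as a whole was transcribed in every library and the gap lay in Solyc03g113010.2 alone, which was listed at 0 in all CK2 libraries and at 9.33 to 16.5 FPKM in OE. The second gene model of Solyc03g111140 was at 1.33 to 2.3 FPKM in the controls and 3.47 to 5.22 FPKM in OE, far below the 64.5 to 131 FPKM of the first. When the FPKM of both gene models were summed, 19 of the 22 loci still met the limits.

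**Figure D5:**
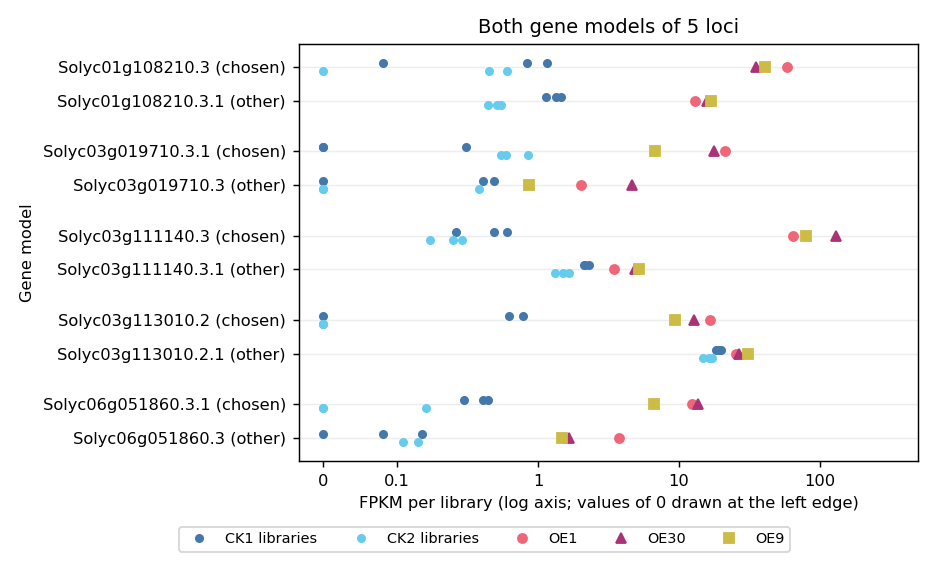
FPKM (log axis) in every library of both gene models at the 5 loci that hold a pair; the chosen gene model stands above the other of its locus. At Solyc03g113010 the other gene model lies at 14.9 FPKM or more in all 9 libraries, while the chosen one is under 1 FPKM in the controls.

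The 22 loci were spread over the genome. By their IDs, chromosome 3 held 5, chromosome 1 held 4, chromosomes 2 and 9 held 3 each, chromosomes 4 and 6 held 2 each, and chromosomes 7, 11 and 12 held 1 each, with 0 on chromosomes 5, 8 and 10. Chromosome 3 carries 10.3% of the gene models of the table and held 22.7% of the 22. In ID order, 0 of the 22 had another of the set among the 5 loci on either side, against 0.815% of the other loci. The nearest pair, Solyc03g019710 and Solyc03g019820, stood 11 loci apart. With 22 loci and a share this small among the others, a count of 0 says little about tandem copies.

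The gene models beside the 22 were not chosen by the limits, and their difference between OE and the control sets was tested. Among the 5 loci on each side of the 22, 189 gene models were tested against both control sets, and 31 (16.4%) were higher in OE than in CK1 and in CK2 by the same test and thresholds (limma-trend), against a background of 15.7% of all gene models tested. Lower than both were 15 (7.94%), against a background of 13%. The share that was higher in OE was thus near the background, and the share that was lower was smaller, a difference that was not tested.

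Neighbours that were higher in OE numbered 4 of 8 tested around Solyc09g008770 and 4 of 9 around Solyc12g098900, and 0 around 6 of the 22 loci. The 4 around Solyc09g008770 include both gene models of the locus Solyc09g008820. The neighbour with the largest fold change among those above 0 in the controls, chosen after its values were seen, was Solyc09g015700.3, beside Solyc09g015650. It was at 122, 122 and 119.8 FPKM in OE1, OE30 and OE9, against 9.43 to 9.89 FPKM in CK1 and 5.17 to 5.85 FPKM in CK2. Its log2 difference by limma-trend was 4.46 ± 0.08 (SE) against CK2, with an adjusted p of 2.44e-07, and 3.65 ± 0.07 (SE) against CK1, with an adjusted p of 1.00e-06. Like Solyc09g015650.3 it differed little between the OE libraries. The paper lists Solyc09g015700.3 among the genes bound and regulated by WRKY-B. Its log2 change there lies nearer to the value against CK2 than to that against CK1. The same holds for Solyc06g076490.3, a neighbour of Solyc06g076520 that is also in the paper's list. Its log2 difference here was 1.37 against CK2 and 1.68 against CK1.

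Binding of WRKY-B near these genes was looked up by ID alone in the list of genes nearest to a WRKY-B ChIP-Seq peak, and no ChIP-Seq value was analysed here. Of the 22 loci, 0 were in that list, which holds 6.35% of the 27028 loci of the table that could be looked up. With 22 loci and a share this small, a count of 0 says little. Promoter and protein sequences of the 22 were not used here.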

How the data were processed

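The data were tomato RNA-Seq libraries, 3 each of CK1, CK2 and OE. The deposited table gives FPKM with 2 decimals for each gene model in each library, beside log2 ratios, p-values and q-values of their own comparisons, which were not used. The submitters' processing notes name, with no role or order, DESeq2 1.4.5, RSEM 1.2.12, HISAT2 2.0.4 and Bowtie2 2.2.5. Read totals were not given, so errors are SDs over 3 libraries, and p-values measure the spread between these libraries only. The labels do not say whether they are separate plants. Of the gene models, 8423 have a position, on SL3.0, and 448 gene models were added by the authors' pipeline. None of the tomato IDs matched the 41476 genes of the RefSeq table (assembly SLM_r2.1), so the lists of markers and roles could not be filled and no sequence could be read.

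The gene models, lists and tests were chosen with earlier results of these data known. The rule for named genes gave the 4 with the highest OE mean when no names are at hand. All 22 are printed so that each is accounted for. Differences were tested by limma-trend (R 4.3.3, limma 3.58.1) after adding 0.1 to each FPKM and taking log2. A gene model entered a test when 3 or more libraries of the sets compared, the only ones fitted, reached 0.5 FPKM. P-values were adjusted over every gene model tested (Benjamini-Hochberg). Levels, counts and plots were made in Python 3.11.15 (pandas 2.3.3, numpy 2.4.6, matplotlib 3.10.9). The test was tried on simulated data. Alternatives were other limits, a median-ratio scaling, summed gene models of a locus, log2(FPKM + 1), no filter, no fold threshold, all 9 libraries in 1 fit, a replicate block and leaving out each library. The comparisons of neighbouring gene models, with all their alternatives, were added after seeing the data.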

Additional observations from a re-analysis of the deposited data

How the results depend on the processing

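The number of gene models that met the limits depended mostly on where the limits stood. It was 22 as reported, 10 with an OE mean of 20 FPKM or more, 85 with 5 FPKM for the OE mean and 2.5 FPKM for each OE library, 9 with control means under 0.5 FPKM and 68 with control means under 2 FPKM. It was 15 with every control library under 1 FPKM, 17 with median-ratio scaling and 20 with the gene models of a locus summed. Leaving out 1 library gave 17 (without OE30) to 34 (without OE1), with 29 without OE9 and 21 to 26 without a control library. The count of gene models called between CK2 and CK1 was 3 of 10 tested as reported, 0 with log2(FPKM + 1), 6 of 22 with no filter and 7 of 22 with all 9 libraries in 1 fit, where 27%, 20%, 21.9% and 25% of all gene models tested were called in the same order. Leaving out 1 library gave 1 to 2 of the 5 to 8 tested, a number bounded by the filter. With the replicate number of the titles as a block it was 3, and the numbers did not pair the libraries, as the correlation of the deviations of same-numbered libraries was −0.03, 0.01 and −0.01. It was also 3 with median-ratio scaling and 3 with no fold threshold. For the fits with 1 library left out or with no fold threshold, no share over all gene models is given.

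OE30 was the highest OE library in 77.3% of the gene models as reported, in 81.8% after scaling and in 80% of the 10 with an OE mean of 20 FPKM or more. The share of neighbouring gene models higher in OE than in both control sets was 16.4%, and 11.1% to 16.8% over the 9 alternatives. The number with another of the set nearby was 0 at 2, 5 and 10 loci on each side. Among the other loci the share was 0.326%, 0.815% and 1.59% in the same order. The unknown depth, the 1 library behind each of OE1, OE30 and OE9, and labels that differ from the paper on tissue and cultivar limit all these values.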
